A study of Homo sapiens with 6 samples.

Results

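The miR-17/92 cluster at 13q31 was examined in azacitidine-sensitive and azacitidine-resistant K562 cells. It is described through 10 mature miRNA arms of its 6 hairpins, chosen by name out of 2656 rows of a table of miRNA read counts. All 10 were in the table and all 10 passed the filter on low counts. K562 is a human leukaemia line with erythroid traits, which the labels class as a myeloblast line. Azacitidine is a cytidine analogue that traps DNA methyltransferases. The sensitive group is the parental line. The resistant group is the same line after months of continuous growth in rising azacitidine concentrations. Each group had 3 libraries labelled as biological replicates. The labels name no separate selections of resistant cells, do not explain the letters NT in the library names and do not say whether the drug was present at harvest. The p-values therefore cover the spread between these libraries, and an effect of the drug in the medium cannot be told apart from a lasting change. In bulk RNA a change per cell and a change in the share of cells that make a miRNA cannot be told apart either.

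The 6 hairpins are cut from 1 primary transcript, MIR17HG, by the nuclear enzyme Drosha, and each hairpin is then cut by Dicer into a 5p and a 3p arm. The arm that is kept by an Argonaute protein (the guide) represses mRNAs that pair with its seed, and the other arm (the passenger) is mostly degraded. The cluster, also called oncomiR-1, is activated by MYC and E2F factors, and its guides repress the death factor BIM and the cell cycle inhibitor CDKN1A. The 6 hairpins span 787 bases, from 91350605 to 91351391 on the plus strand of chromosome 13 (GRCh38). In GENCODE 29 they lie inside MIR17HG (91347820 to 91354579), in exon 2 or exon 3 of 2 of its transcript forms and in intron 3 of another. The guides fall into 4 seed groups, and the mature sequences from RefSeq (GRCh38.p14) are shown to make these groups and both arms of each hairpin visible, with the seed (bases 2 to 8) in capitals.
hsa-miR-17-5p: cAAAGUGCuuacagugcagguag
hsa-miR-20a-5p: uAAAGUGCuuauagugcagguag
hsa-miR-18a-5p: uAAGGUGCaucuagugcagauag
hsa-miR-19a-3p: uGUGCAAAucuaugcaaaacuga
hsa-miR-19b-3p: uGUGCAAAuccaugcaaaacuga
hsa-miR-92a-3p: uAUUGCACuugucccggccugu
hsa-miR-17-3p: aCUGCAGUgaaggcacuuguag
hsa-miR-18a-3p: aCUGCCCUaagugcuccuucugg
hsa-miR-20a-3p: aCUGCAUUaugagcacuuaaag
hsa-miR-92a-1-5p: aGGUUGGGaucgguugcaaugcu
The prefix hsa, for human, is left out from here on. The first 6 are the more abundant arms and are called guides here, and the last 4 are the passengers. miR-17-5p and miR-20a-5p share a seed and differ by C1U and C12U, counted from the 5′ end with the base of miR-17-5p first. miR-19a-3p and miR-19b-3p share a seed and differ by U11C. The hairpins of miR-18a and miR-92a-1 are shown because the balance of their arms differed most between libraries, with the mature arms in capitals. MIR18A lies at 91350751 to 91350821 and MIR92A1 at 91351314 to 91351391.
MIR18A: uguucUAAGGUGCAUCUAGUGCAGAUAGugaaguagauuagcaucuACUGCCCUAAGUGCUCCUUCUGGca
MIR92A1: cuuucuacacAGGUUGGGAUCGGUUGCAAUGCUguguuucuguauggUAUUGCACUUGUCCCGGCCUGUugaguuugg

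Library totals ran from 5660055 to 12563945 counts in the sensitive and from 3291500 to 10644739 in the resistant group. Resistant replicate 3, the shallowest library, stood apart. Across the 768 tested miRNAs its log2 CPM correlated with those of resistant replicates 1 and 2 at r = 0.861 and 0.851, while these 2 correlated with each other at 0.994. The comparisons are therefore given with and without it. Across the 677 tested miRNAs with a RefSeq sequence, the log2 deviation of resistant replicate 3 from its group rose with the GC content of the miRNA (Spearman's rho 0.711, miRNAs not being independent). Of 5 listed erythroid arms, the 2 of miR-486 had log2 fold changes above 0 and the 3 of miR-451a and miR-144 had values from -0.94 to just under 0, and 0 passed the edgeR test that is described with the cluster's arms. Their summed share was 0.528% to 0.707% in sensitive and 1.35% to 5.04% in resistant libraries, mostly miR-486-5p. Of 3 listed myeloid arms (miR-223-3p and miR-142) 0 passed, and they held 1.11% to 1.25% of the counts in sensitive and 0.104% to 1.303% in resistant libraries. Without resistant replicate 3, both miR-486 arms rose and miR-223-3p fell, in a fit that called 28.1% of all miRNAs. Of 6 miRNAs of tissues other than blood, 1 (miR-302a-3p, of pluripotent cells) had no count in any library, and the 6 together held at most 0.000855% of a library.

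The cluster was among the most abundant miRNA sources of the line. Its 10 arms held 25.5%, 24.5% and 24.4% of the counts in sensitive replicates 1 to 3. In resistant replicates 1 and 2 they held 33.9% and 32.5%, and in resistant replicate 3 they held 61.5% (exact 95% binomial interval 61.5% to 61.6%). The groups did not overlap in this share of library totals, and the lowest resistant library was above the highest sensitive one. The share does not include the scaling factors that are used below for single arms. After that scaling the groups overlapped for miR-92a-3p, miR-20a-5p and miR-17-5p, the most abundant arms of the cluster. The separation therefore depends on the scaling. The sensitive mean was 24.8 ± 0.594% and the resistant mean 42.6 ± 16.3% (SD over 3 libraries each), or 33.2% when resistant replicate 3 was left out. An exact two-sided permutation test of the share gave p = 0.1 with and without that library, the smallest p these numbers of libraries allow. The test was not planned, and it adds no support beyond the separation of the groups on library totals. The shares of library counts given for the cluster and its arms have exact 95% intervals no wider than 0.0532 percentage points on either side, which cover counting error only, since reads carry no molecular identifiers.

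**Figure D1:**
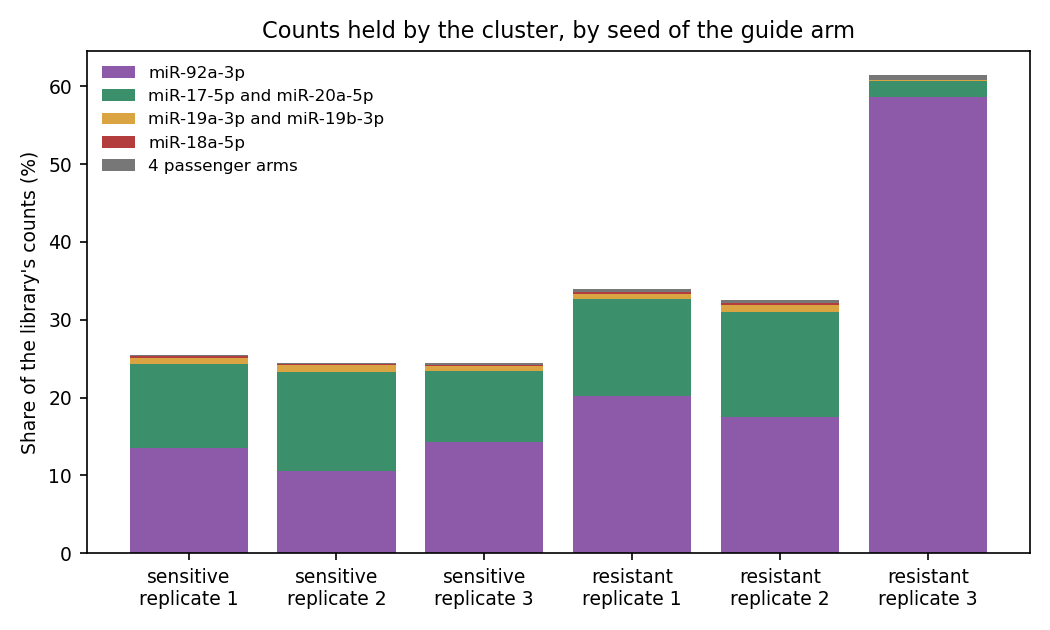
Share of each library's counts held by the cluster (%), stacked by the seed group of the guide arms, with the 4 passenger arms together. The bars reach 24.4% to 25.5% in sensitive libraries and 32.5%, 33.9% and 61.5% in resistant libraries, and in resistant replicate 3 nearly the whole bar is miR-92a-3p.

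The seed groups made up the cluster unequally. miR-92a-3p, whose seed is shared with miR-25-3p and which represses integrin and BIM transcripts, held 53.3%, 42.9% and 58.6% of the cluster's counts in sensitive replicates 1 to 3. In resistant replicates 1 to 3 it held 59.6%, 53.9% and 95.3%. miR-17-5p and miR-20a-5p, which repress CDKN1A and E2F1, together held 42.3%, 52.3% and 37.3% in sensitive and 36.6%, 41.7% and 3.35% in resistant replicates. The miR-19 pair held 2.38% to 3.42% in sensitive and 2.09%, 2.49% and 0.104% in resistant libraries. Resistant replicate 3 stood outside the range of the other 5 libraries in all 3 of these groups. The other resistant libraries lay within the sensitive range for miR-17-5p with miR-20a-5p in 1 case and below it in the other. Without miR-92a-3p the cluster held 11.9%, 13.99% and 10.1% of all counts in sensitive and 13.7%, 14.99% and 2.86% in resistant replicates, and the groups overlapped.

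Levels of single arms were compared as CPM, the usual scaling of counts to a common library size, here adjusted with trimmed mean of M values (TMM) factors. The arms are 22 or 23 bases long, so length does not separate their levels, but adapter ligation favours some sequences over others. In sensitive cells the order by mean CPM was miR-92a-3p, miR-20a-5p, miR-17-5p, miR-19b-3p, miR-19a-3p, miR-18a-5p, miR-18a-3p, miR-17-3p, miR-92a-1-5p and miR-20a-3p. Of the 9 neighbouring pairs in that order, only miR-19a-3p and miR-18a-5p had overlapping ranges over the 3 sensitive libraries. In resistant cells 6 of the 9 neighbouring pairs overlapped, and miR-92a-1-5p and miR-18a-3p stood above miR-18a-5p in the order of means. That order rests on resistant replicate 3, since only 1 of the 3 libraries had miR-18a-3p above miR-18a-5p.

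**Figure D2:**
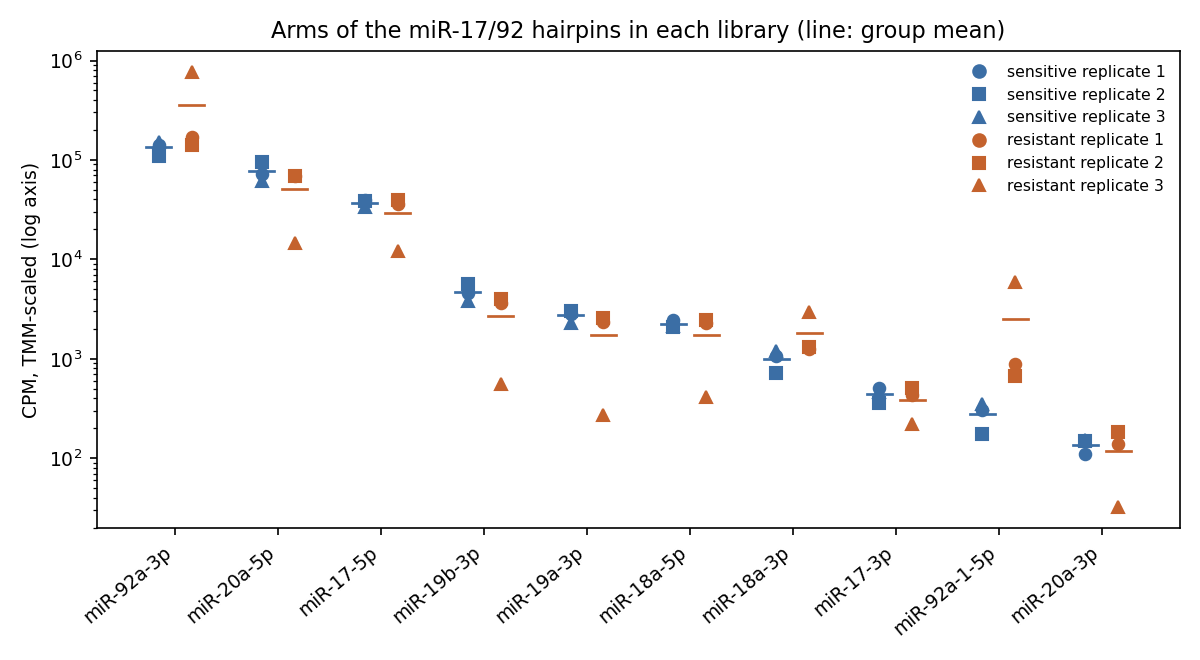
CPM of the 10 arms on a log axis, ordered by their mean in sensitive libraries. Points are single libraries and short lines are group means over 3 libraries. Resistant replicate 3 (orange triangle) lies above every other library for miR-92a-3p, miR-18a-3p and miR-92a-1-5p and below every other library for the other 7 arms.

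Whether the arms differed between the groups was tested with edgeR's quasi-likelihood F test over all 768 miRNAs. Of the 10 arms, 0 passed an adjusted p of 0.05, against 4.17% of all tested miRNAs, and 1 had an unadjusted p under 0.05, against 205 of the 768. DESeq2 gave no adjusted p for miR-92a-1-5p and so could not call that arm. It called 0 of the other arms, with 19.4% of all called. Of the log2 fold changes (resistant over sensitive), 7 were negative and 3 positive. Their median was -0.28, against -0.11 over all tested miRNAs. With resistant replicate 3 left out, 1 arm was higher and 0 were lower, against 28.1% of the 822 miRNAs then tested (13.7% higher and 14.4% lower). In those 5 libraries the median over the 10 arms was 0.14, against 0.04 over all. For 2 arms, miR-18a-3p and miR-92a-1-5p, every resistant library had a higher CPM than every sensitive one, where 41.8% of all tested miRNAs had groups that did not overlap. The same 2 arms did not overlap without resistant replicate 3 (53% of all).

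**Figure D3:**
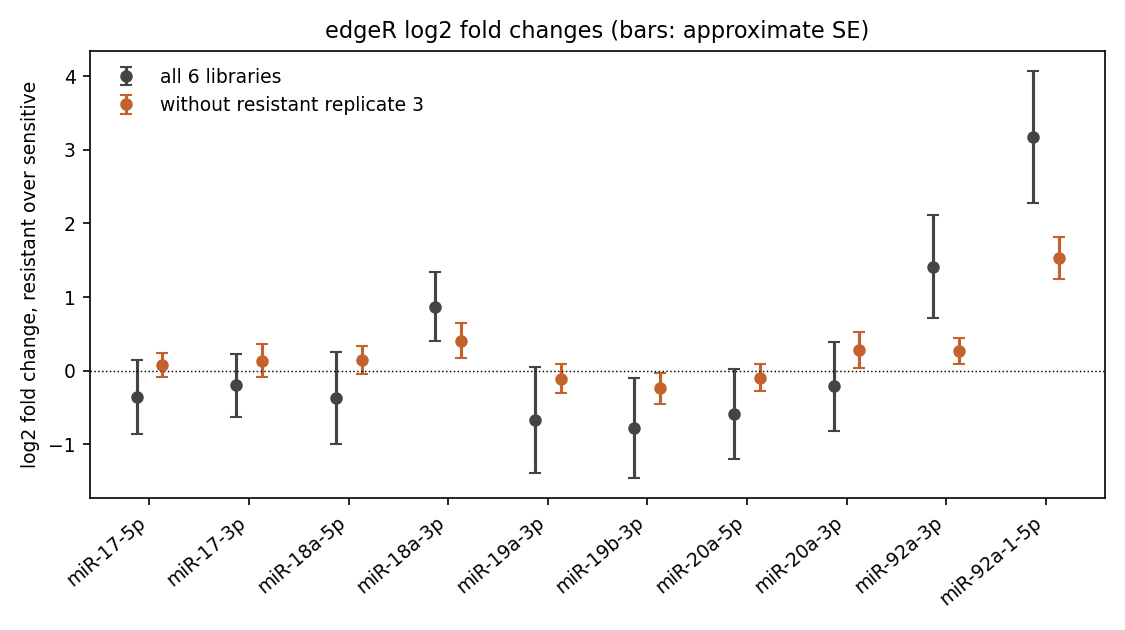
edgeR log2 fold changes of the 10 arms, resistant over sensitive, with approximate standard errors, for all 6 libraries (grey) and without resistant replicate 3 (orange). miR-92a-1-5p has the highest value in both fits, 3.17 and 1.53. miR-17-5p, miR-17-3p, miR-18a-5p and miR-20a-3p lie below 0 with all libraries and above 0 without resistant replicate 3.

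The passenger arm of the last hairpin, miR-92a-1-5p, was the arm that passed the test once resistant replicate 3 was left out. It had 303, 175 and 352 CPM in sensitive replicates 1 to 3 and 881, 670 and 5940 CPM in resistant replicates 1 to 3 (3646, 1716 and 1905 counts, then 8654, 8882 and 15121 counts). Every resistant library was above every sensitive one, with resistant replicate 3 the highest. By rank among all rows of the table it was at places 148 to 190 in sensitive and at places 91, 108 and 20 in resistant libraries. Its log2 fold change was 3.17 (SE 0.896, 9.01-fold), which missed the threshold (edgeR adjusted p = 0.0981). In the other 5 libraries it rose 2.89-fold, a log2 fold change of 1.53 ± 0.282 (SE, edgeR adjusted p = 0.00199). When counts of these 5 libraries were also corrected for GC content, an alternative added with the values known, the log2 fold change was 1.41 (edgeR adjusted p = 0.000911, with 27.2% of all tested called). With all 6 libraries it passed with library quality weights (limma adjusted p = 3.83e-05, 42.1% of all called) and without a filter (edgeR adjusted p = 2.57e-05, 9.34% of all called). It passed without resistant replicate 2 as well (edgeR adjusted p = 0.0455, 3.31% of all called). In total it passed in 6 of 17 alternatives. With all 6 libraries it missed with library totals (edgeR adjusted p = 0.0562), a minimum mean of 10 CPM (edgeR adjusted p = 0.121) and limma-voom (limma adjusted p = 0.154). It also missed without resistant replicate 1 (edgeR adjusted p = 0.0925) and without any 1 of the sensitive libraries (edgeR adjusted p from 0.262 to 0.355).

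miR-92a-3p, the guide of the same hairpin, did not pass in the same fits. It had 141994, 109346 and 149873 CPM in sensitive replicates 1 to 3, where it was the second most abundant miRNA in each library. In resistant replicates 1 to 3 it had 170940.0, 140566 and 758281 CPM, and was the most abundant miRNA in each. Resistant replicate 1 and resistant replicate 3 were above all sensitive libraries, and resistant replicate 2 was within their range. The log2 fold change was 1.41 (SE 0.693, edgeR adjusted p = 0.225) with all libraries and 0.27 (SE 0.176, edgeR adjusted p = 0.294) without resistant replicate 3. That second value depended on the scaling. With library totals in place of TMM factors, the log2 fold change in the 5 libraries was 0.56 (edgeR adjusted p = 0.0297, 29.7% of all called), while the median over all tested miRNAs moved from 0.04 to 0.33. With the GC correction in the 5 libraries it was 0.07 (edgeR adjusted p = 0.771). In the fit with all 6 libraries the TMM factors were 1.18, 1.25 and 0.774 in resistant replicates 1 to 3. They were 0.955 to 0.960 in the sensitive libraries. The fit with 5 libraries had factors of its own, which are not given here.

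A hairpin on the X chromosome, MIR92A2, has the same 3p arm, and so has MIR19B2 for miR-19b-3p. The passenger arms tell these loci apart. miR-92a-2-5p had 0 counts in all 6 libraries, which with a floor of 3 counts allows up to 0.0592 CPM over their summed totals, and miR-19b-2-5p had 0 to 12 counts per library. The 13q31 passengers miR-92a-1-5p and miR-19b-1-5p had 1716 to 15121 and 49 to 1246 counts. How much of each 3p arm came from either locus was not measured directly.

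The other guides did not pass in either fit. miR-20a-5p had 72787, 95258 and 61971 CPM in sensitive and 69401, 69032 and 14614 CPM in resistant replicates 1 to 3, with a log2 fold change of -0.59 ± 0.606 (SE, edgeR adjusted p = 0.551). miR-17-5p had 39826, 38209.8 and 33385 CPM in sensitive and 35624, 39712 and 12032 CPM in resistant replicates, with a log2 fold change of -0.35 ± 0.504 (SE, edgeR adjusted p = 0.662). For both, resistant replicates 1 and 2 lay within the sensitive range and resistant replicate 3 below it. Leaving out resistant replicate 3 gave -0.09 (SE 0.188, edgeR adjusted p = 0.774) for miR-20a-5p and 0.08 (SE 0.166, edgeR adjusted p = 0.791) for miR-17-5p. 

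miR-18a-5p, which represses the DNA damage kinase ATM, and the miR-19 guides had their lowest values in resistant replicate 3 as well. miR-18a-5p had 2448, 2079 and 2143 CPM in sensitive and 2273, 2481 and 409 CPM in resistant replicates. miR-19b-3p had 4536, 5695 and 3779 CPM in sensitive and 3664, 3954 and 551 CPM in resistant replicates. miR-19a-3p had 2837, 3025 and 2316 CPM in sensitive and 2336, 2542 and 273 CPM in resistant replicates. The groups overlapped for all 3 arms. Log2 fold changes were -0.37, -0.78 and -0.67 with all libraries and 0.15, -0.24 and -0.11 without resistant replicate 3, with edgeR adjusted p from 0.446 to 0.751 over those 3 arms and 5 libraries.

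Among the other passengers, miR-18a-3p had 1072, 724 and 1209.7 CPM in sensitive and 1268, 1299 and 2919.9 CPM in resistant replicates. The groups did not overlap, but the lowest resistant value was within 5% of the highest sensitive one. Its log2 fold change was 0.87 (SE 0.471, edgeR adjusted p = 0.260) with all and 0.41 (SE 0.237, edgeR adjusted p = 0.229) without resistant replicate 3. miR-17-3p ranged from 362 to 505 CPM in sensitive and from 220 to 506 CPM in resistant libraries, and miR-20a-3p from 110.5 to 154 and from 32.6 to 182 CPM. Both had negative log2 fold changes with TMM factors (-0.20 and -0.21) and positive ones with library totals (0.04 and 0.08). The 2 remaining arms of the 6 hairpins, which are not among the 10, had few reads. miR-19b-1-5p had 62.9 to 101 CPM in sensitive and 19.2 to 109 CPM in resistant libraries, and miR-19a-5p had 0 to 33 counts per library. Neither passed, with log2 fold changes of -0.08 and -0.09 (edgeR adjusted p = 0.939 and 0.946), or of 0.42 and 0.40 without resistant replicate 3 (edgeR adjusted p = 0.261 and 0.567).

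Guide and passenger arms were then compared within each library, as a ratio that needs no scaling between libraries. The log2 ratio was tested with limma over the 207 hairpins whose arms both passed the filter, and 3 of these (1.45%) passed an adjusted p of 0.05. Of the cluster's 6 hairpins, 0 passed. At an unadjusted p under 0.05, 1 of the 6 passed, against 17 of the 207. In the 5 libraries without resistant replicate 3, 0 of the 6 passed with limma (1.36% of 221 hairpins; 25 of the 221 had an unadjusted p under 0.05) and 1 with edgeR's diffSpliceDGE, which was added for these libraries with the values known (2.71% of 221). All 6 differences of the mean log2 ratio were negative, while the median over all 207 hairpins was also negative, at -0.27. For miR-19a, the passenger had 0 counts in resistant replicate 3, so its value rests on the 0.5 added to each count. With 2 added instead, its difference was -0.95 in place of -0.37.

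**Figure D4:**
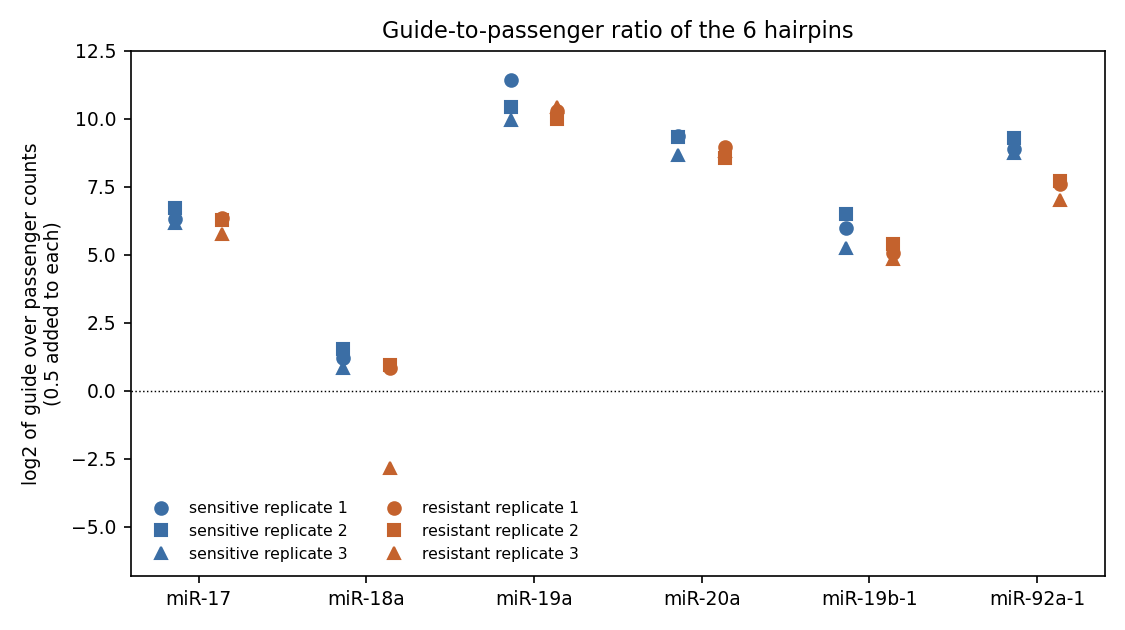
Log2 ratio of guide to passenger counts, with 0.5 added to each count, for the 6 hairpins in each library. The ratio of miR-92a-1 is lower in all 3 resistant than in all 3 sensitive libraries, and the ratio of miR-18a is below 0 in resistant replicate 3 alone.

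The hairpin of miR-92a-1 was the one whose arm ratio did not overlap between the groups. Its guide outnumbered its passenger 468-fold, 624-fold and 425-fold in sensitive replicates 1 to 3. In resistant replicates 1 to 3 the ratio was 194-fold, 210-fold and 128-fold. The highest resistant ratio was below the lowest sensitive ratio, a separation that 49 of the 207 hairpins showed (23.7%). The mean log2 ratio was 8.96 ± 0.288 in sensitive and 7.44 ± 0.385 in resistant replicates (SD over 3 libraries), a difference of -1.53 that missed the threshold (SE 0.404, limma adjusted p = 0.243). With 5 libraries the difference was -1.31 (SE 0.300, limma adjusted p = 0.147), where 31.7% of hairpins did not overlap. In these 5 libraries diffSpliceDGE gave -1.26 (edgeR adjusted p = 0.00689), while with all 6 libraries it gave -1.76 (edgeR adjusted p = 0.331, 0.966% of hairpins called). Part of the guide's reads could come from the X-linked hairpin, which the ratio cannot separate.

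The hairpin of miR-18a kept its arms closest to balance. miR-18a-5p outnumbered miR-18a-3p 2.28-fold, 2.87-fold and 1.77-fold in sensitive replicates and 1.79-fold and 1.91-fold in resistant replicates 1 and 2. In resistant replicate 3 the ratio was 0.140, so that the 3p arm held 87.7% of the hairpin's reads, against 25.8% to 36.1% in the other 5 libraries. Counts in that library were 1041 for the 5p and 7433 for the 3p arm. The difference between groups was -1.53 (SE 0.974, limma adjusted p = 0.425) and -0.29 without resistant replicate 3 (SE 0.314, limma adjusted p = 0.669). GC content is 43.5% in the 5p and 56.5% in the 3p arm.

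For the other hairpins the groups overlapped. The guide-to-passenger ratio of miR-17 was 71.4-fold to 105.7-fold in sensitive and 54.8-fold to 81.5-fold in resistant libraries. That of miR-20a was 404-fold to 659-fold and 379-fold to 497-fold, and that of miR-19b-1 was 37.5-fold to 90.5-fold and 28.6-fold to 42.1-fold. For miR-19a the passenger had 12 to 33 counts in 5 libraries and 0 in resistant replicate 3, where the ratio was at least 232-fold with a floor of 3 counts. The log2 differences of miR-17, miR-20a, miR-19b-1 and miR-19a were -0.25, -0.34, -0.81 and -0.37 with all libraries (limma adjusted p from 0.408 to 0.697). They were -0.07, -0.36, -0.67 and -0.48 when resistant replicate 3 was left out (limma adjusted p from 0.525 to 0.916).

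The arms of the cluster split by GC content in resistant replicate 3. The 3 arms with a GC content above 50% were above the mean of resistant replicates 1 and 2 on the log2 CPM scale, by 2.95 for miR-92a-1-5p (GC 52.2%), 2.29 for miR-92a-3p (54.5%) and 1.19 for miR-18a-3p (56.5%). The other 7 arms were below it. The deviation was -1.10 for miR-17-3p (50.0%), -1.64 for miR-17-5p (47.8%), -2.54 for miR-18a-5p (43.5%) and -3.16 for miR-19a-3p (34.8%). It was -2.24 for miR-20a-5p (39.1%), -2.79 for miR-19b-3p (39.1%) and -2.29 for miR-20a-3p (36.4%), so the 7 did not follow GC content strictly. Arms of 1 hairpin therefore went in opposite directions in this library for miR-18a, and in 1 direction for miR-17, miR-20a and miR-92a-1. The split at 50% did not hold for the miR-106b/25 cluster, described below. In resistant replicate 3, miR-93-5p (52.2%) and miR-93-3p (59.1%) deviated by -0.32 and -0.64. There miR-25-5p (57.1%) and miR-106b-3p (63.6%) deviated by 2.59 and 1.45. Outside this library, GC content also moved with the difference between groups, with a Spearman's rho of 0.334 across miRNAs for the log2 fold changes without resistant replicate 3. Its part in the results was tested only through the GC correction. Values without resistant replicate 3 are given above for miR-92a-1-5p and miR-92a-3p, and below for arms whose direction changed. With that correction and all 6 libraries the log2 fold change of miR-92a-3p was 0.92 (edgeR adjusted p = 0.262) and that of miR-92a-1-5p 2.94 (edgeR adjusted p = 0.0541).

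**Figure D5:**
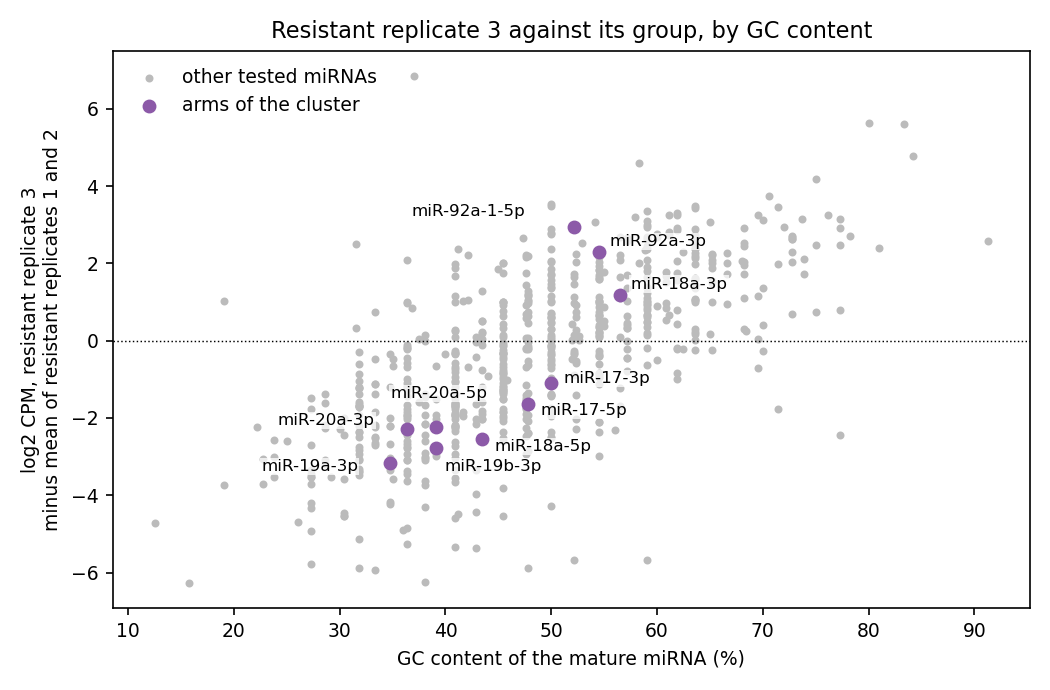
Log2 CPM of resistant replicate 3 minus the mean of resistant replicates 1 and 2, against the GC content of the mature miRNA (%), for the 10 arms of the cluster (purple) and the other tested miRNAs with a sequence (grey). The 3 arms above the dotted line at 0 have GC contents of 52.2% to 56.5%, and the 7 arms below it have 34.8% to 50.0%.

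A pair of paralogous clusters share seeds with the one at 13q31. Of the 10 arms of the cluster at Xq26, which runs from miR-106a to miR-363, 4 were tested with all libraries and 5 without resistant replicate 3. With edgeR 0 of these passed in either fit, also at an unadjusted p under 0.05, and 4 arms had 0 counts in every library. Its 2 most abundant arms were miR-106a-5p, at 478 to 611 CPM in sensitive and 181 to 550 CPM in resistant libraries, and miR-20b-5p, at 330 to 451 and 86.4 to 369 CPM. miR-106a-5p differs from miR-17-5p by C1A, and miR-17-5p had 62.6 to 72.3 times its counts in every library. miR-20b-5p differs from miR-20a-5p by U1C and U10C, and miR-20a-5p had 169 to 211 times its counts. How the counting divided reads between such near-identical arms is not given in the sources used here, so the levels of these X-linked arms are uncertain.

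The miR-106b/25 cluster on chromosome 7 has guides with the seeds of miR-17-5p and miR-92a-3p only. Of its arms, 0 of 6 arms passed with all libraries, with a median log2 fold change of 0.75 against -0.28 for the 13q31 arms and -0.11 over all. Leaving out resistant replicate 3, 1 of 10 arms at 13q31 rose, while 13.7% of all tested miRNAs rose and 14.4% fell. Of the 6 arms of the miR-106b/25 cluster, 5 rose and 0 fell. These were miR-25-3p, miR-25-5p, miR-93-5p, miR-93-3p and miR-106b-3p. Its most abundant arms, miR-25-3p and miR-93-5p, had log2 fold changes of 0.80 and 0.97 there (edgeR adjusted p = 0.00347 and 0.00377). Whether the clusters differ in their change was not tested. Of 20 tested miRNAs reported as repressed by MYC, the activator of MIR17HG, 2 rose and 0 fell with all libraries, where 4.17% of all were called. These were let-7a-5p and let-7d-5p (log2 fold changes 2.52 and 2.18, edgeR adjusted p = 0.0198 and 0.0482). The median over that list was -0.40. In the 5 libraries without resistant replicate 3, 4 of the list rose (let-7a-5p, let-7d-5p, let-7f-5p and let-7g-5p) and 3 fell (miR-29a-3p, miR-30b-5p and miR-146a-5p), where 28.1% of all were called, and its median was 0.07.

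The miRNAs whose pattern was most like that of 2 members were sought by the root mean square difference of centred log2 CPM over the 6 libraries, among 459 other miRNAs whose mean was 10 CPM or more. For miR-17-5p these were its near-copy miR-106a-5p (0.0690), miR-548d-5p (0.0856) and miR-192-5p (0.117), where the median over all 459 was 0.781. For miR-92a-3p they were miR-92b-3p, a paralogue by its name (0.0360), miR-125a-3p (0.106) and miR-1273h-3p (0.117), against a median of 1.22. Whether the counting shared reads between miR-92a-3p and miR-92b-3p is not given in the sources used here. Among the arms themselves the closest pair was miR-19a-3p and miR-19b-3p (0.143). miR-19a-3p and miR-92a-1-5p were the least alike (2.79). The 2 arms of miR-17 differed by 0.280, those of miR-20a by 0.309, those of miR-92a-1 by 0.812 and those of miR-18a by 1.47. Over the 5 libraries without resistant replicate 3 the distances were 0.190 for the arms of miR-17, 0.332 for miR-20a, 0.666 for miR-92a-1 and 0.265 for miR-18a. The closest pair of arms was then miR-19b-3p and miR-20a-5p (0.0846), and miR-19b-3p and miR-92a-1-5p were the least alike (1.04). In those libraries miR-106a-5p was at place 3 in likeness to miR-17-5p (0.0748, median 0.378), and miR-92b-3p stayed at place 1 for miR-92a-3p (0.0187, median 0.409). The distances are a description of these libraries.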

How the data were processed

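Small RNA was sequenced from 3 azacitidine-sensitive and 3 azacitidine-resistant K562 libraries, prepared with a NEBNext small RNA kit per the labels' protocols. The deposited file holds whole-number read counts, not normalized, with a row for each mature miRNA and a column for each library. The submitters' processing notes name GRCh38. Which aligner, counting program and miRBase release made the counts is not given in the sources used here.

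Counts were filtered with filterByExpr (minimum count 10, minimum total 15), scaled with TMM factors and tested with edgeR 4.0.16 in R 4.3.3 (quasi-likelihood F test, no covariates, Benjamini-Hochberg adjustment over all tested miRNAs, threshold 0.05). SE values are the absolute log2 fold change over the square root of F. CPM were scaled by TMM factors, and log2 CPM had a prior count of 0.5. Arm ratios, log2 of counts plus 0.5, were tested with limma 3.58.1. DESeq2 1.42.0, limma-voom, other scalings and filters, a replicate block, each library left out and a loess correction for GC content (span 0.75, linear) were alternatives. The scripts were tested on simulated counts. The cluster's share was planned as a description without a test, and an exact permutation test of it was added.

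RefSeq sequences matched 2367 of the 2656 rows and all 10 arms. All arms of the cluster are named. From each paralogous cluster the 2 most abundant arms and any past the threshold are named, from the MYC list those past it with all 6 libraries (the others after their values were seen), and by likeness the 3 closest miRNAs. The members, lists and alternatives were chosen with earlier results of these data known. Replicates of a group differed by more than sampling noise (chi-square per degree of freedom at least 123.6).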

Additional observations from a re-analysis of the deposited data

How the results depend on the processing

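With each of the 6 libraries left out in turn, the number of the 10 arms called ran from 0 to 1, and miR-92a-1-5p passed without resistant replicate 2 (log2 fold change 3.94, edgeR adjusted p = 0.0455) and without resistant replicate 3. Calls over all miRNAs ran from 4 to 231 in those fits. Over all 6 libraries they were 32 as reported, 21 with RLE factors, 149 with DESeq2, 323 with library quality weights, 162 without a filter, 14 with a minimum mean of 10 CPM and 70 with the GC correction. Quality weights and no filter each called 1 of the 10 arms. Without resistant replicate 3, and chosen after the data were seen, the GC correction called 1 of the 10 arms and 198 miRNAs in all, and library totals called 3 and 244, the 3 being miR-92a-1-5p, miR-92a-3p and miR-18a-3p (log2 fold changes 1.82, 0.56 and 0.70). For the arm ratios, 0 of the hairpins tested passed in each alternative with all 6 libraries and with each library left out, and diffSpliceDGE without resistant replicate 3 called 1.

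Directions changed for arms that passed in no fit. Without resistant replicate 3 the log2 fold changes of miR-17-5p, miR-17-3p, miR-18a-5p and miR-20a-3p were 0.0753, 0.138, 0.151 and 0.287, against -0.507, -0.278, -0.628 and -0.553 without resistant replicate 2, the ends of their ranges over single libraries left out. Without sensitive replicate 1 that of miR-17-3p was 0.02. The arm ratio difference of miR-19a ran from -0.689 to 0.0336, the latter without sensitive replicate 1. With library totals miR-17-3p and miR-20a-3p were at 0.0448 and 0.0848, with quality weights miR-17-3p, miR-18a-5p and miR-20a-3p at 0.0059, 0.0065 and 0.31, and with the GC correction miR-20a-3p at 0.35. With the GC correction in 5 libraries, miR-17-5p, miR-17-3p, miR-18a-5p, miR-19a-3p, miR-20a-5p and miR-20a-3p were at 0.0578, 0.0701, 0.24, 0.12, 0.0897 and 0.49. With library totals in 5 libraries the same arms were at 0.37, 0.43, 0.44, 0.18, 0.19 and 0.58, and miR-19b-3p at 0.0499. The cause was not tested.

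The cluster's share of counts was 11.5% in sensitive and 10.2% in resistant libraries without miR-19b-3p and miR-92a-3p, and 11.99% and 10.5% without miR-92a-3p alone. Over counts without miR-21-5p and fragment-like annotations it was 30.2% in sensitive libraries and 45.0% in resistant ones. Leaving out 1 library gave 24.4% to 24.98% and 33.2% to 47.7%.

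Same-numbered replicates of the 2 groups had r = -0.05, 0.23 and 0.11 for replicates 1 to 3, and differently numbered ones had r from -0.21 to 0.18. For resistant replicates 2 and 3 the same-numbered value was the highest. The library names of the 2 groups carry the same replicate numbers. The number was not taken as a pairing, but these few values cannot exclude one. With the replicate block, 0 of the 10 arms, 23 miRNAs in all and 0 of the 6 hairpins were called, and miR-92a-1-5p had an edgeR adjusted p of 0.112. Depth limits miR-19a-5p, with at most 33 counts.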

Other observations

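The passenger arm of a hairpin outside 13q31, whose guide shares the miR-92a seed, had values of the same kind. It was chosen after its values were seen. miR-25-5p had 181, 139 and 238 CPM in sensitive and 637, 446 and 3209 CPM in resistant replicates. All 3 resistant libraries were above the sensitive ones, where 41.8% of all tested miRNAs had groups that did not overlap. Its log2 fold change of 2.94 did not pass (edgeR adjusted p = 0.0853). When resistant replicate 3 was left out, miR-25-5p rose 3.01-fold (edgeR adjusted p = 0.00102, 28.1% of all called). The guide miR-25-3p outnumbered it 58.9-fold to 99.7-fold in sensitive libraries and 39.5-fold, 50.5-fold and 6.03-fold in resistant replicates 1 to 3. The groups did not overlap in this ratio, as for 23.7% of the tested hairpins. The difference did not pass (limma adjusted p = 0.393, and 0.430 without resistant replicate 3). The GC content of miR-25-5p is 57.1% and that of miR-25-3p 50.0%.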
